A study of Sus scrofa with 6 samples.

Results

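The cytokines, chemokines and their receptors on a pig expression array were described in resting skeletal muscle. A probe was a member when its gene name began with CCL, CCR, CXCL, CXCR, TNFSF, TNFRSF or IL and a digit, or when its description held the word interleukin or chemokine. Of 43603 probes other than controls, 103 met this rule, and they stood for 91 genes or transcripts as named. By name and description together 51 were found, by description alone 35, and by name alone 17. RNA came from longissimus dorsi muscle (LDM), a fast glycolytic back muscle, and psoas major muscle (PMM), a more oxidative loin muscle. The animals were 3 unrelated female Landrace pigs, weaned at 28 days, slaughtered at 210 days of age and kept without feed for 24 h before slaughter. No group received a treatment, and each muscle was measured on 3 one-colour arrays, numbered as replicates 1 to 3. The study asked how DNA methylation differs between oxidative and glycolytic muscle, and how it relates to mRNA and miRNA levels. These arrays were its mRNA part.

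Chemokines are small secreted proteins that draw leukocytes along a gradient, and their receptors are G protein-coupled receptors on the surface of those leukocytes. Interleukins and the ligands of the tumour necrosis factor superfamily (TNFSF) act on other receptors, many of which signal through JAK and STAT proteins or through NF-kappaB. In muscle some of these messengers are made by the fibres themselves, IL6 and IL15 among them, and others by resident macrophages, endothelium and connective tissue cells. In such bulk samples, fewer cells of a type and less RNA per cell cannot be told apart.

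On single arrays 58.4% to 72.4% of all probes were well above background, a call that the scanner software makes for each spot. Probes of 8 skeletal muscle genes, among them the actin ACTA1, the creatine kinase CKM and the myosins MYH1, MYH2, MYH4 and MYH7, were well above background on all 6 arrays. Signals are given as log2 intensity relative to the 75th percentile of the same array, so that 0 is the level of that percentile and a step of 1 is a doubling. Levels of different probes were not compared, because probes differ in how well they bind. The replicate number coincided with the day of scanning, and arrays of the same number deviated together. Over the 73 members tested, the deviations of LDM and PMM arrays from the mean of their muscle correlated at 0.673, 0.689 and 0.788 for replicates 1, 2 and 3, which are descriptions across probes of shared arrays. Replicate number, animal and scan day cannot be told apart here.

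The sequences below identify the probes on which the results turn, and they include 4 of the 5 genes whose probes differed in detection. Each line holds the first 30 of the 60 bases of a probe, from the 5′ end, as the array files give them. The genome position of the probes, and whether they lie in coding or untranslated sequence, was not analysed here.
CXCL9: ctttgttcttccatctccaaccaactggat
CXCL10 probe 1: ctgcatcaagatcagtgacagacctgttaa
CXCL10 probe 2: ctgagtgggtgctcttcaaaataaaactaa
CXCL12 probe 1: ttgaagtggattcaggaatacctggagaaa
CXCL12 probe 2: gacggcaaatccatcaaccacaaactcaca
CXCL8 probe 1: aacaagcaaaaacccattctccgtggctcc
CXCL8 probe 2: tgactgcaagctttgttatgcagtgctgta
IL5: aaagatttttgaggaggaaaaggatgtttt
IL6 probe 1: agccaggttgtttcttggagtgtgtaggct
IL6 probe 2: agattagtaccaaagcactgatccagaccc
IL15 probe 1: tatcgtccattgagtataaaactgaatctg
IL15 probe 2: gtgcataaaatactgcccaatggctcatgt
IL18 probe 1: ggacatgatgataagatacagtttgagtct
IL18 probe 2: taacccacttccaggggcacaccctgattt

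Most chemokine and chemokine receptor probes were detected on every array of resting muscle, and 8 of 25 interleukin probes were. Of the 103 member probes, 65 were well above background on all 6 arrays, 24 on some arrays and 14 on none. The 65 were 63.1% of the members, beside 54.6% of all probes. Among chemokine ligands 23 of 28 probes were detected on all arrays, among chemokine receptors 14 of 20, and among interleukin receptors 9 of 14. All 4 probes of the tumour necrosis factor receptors TNFRSF1A and TNFRSF1B were detected on every array. Of the interleukin probes a further 11 were detected on some arrays and 6 on none, or 24.0%, beside 23.4% of all probes. On single arrays 72 to 82 members were detected in LDM and 73 to 79 in PMM.

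**Figure D1:**
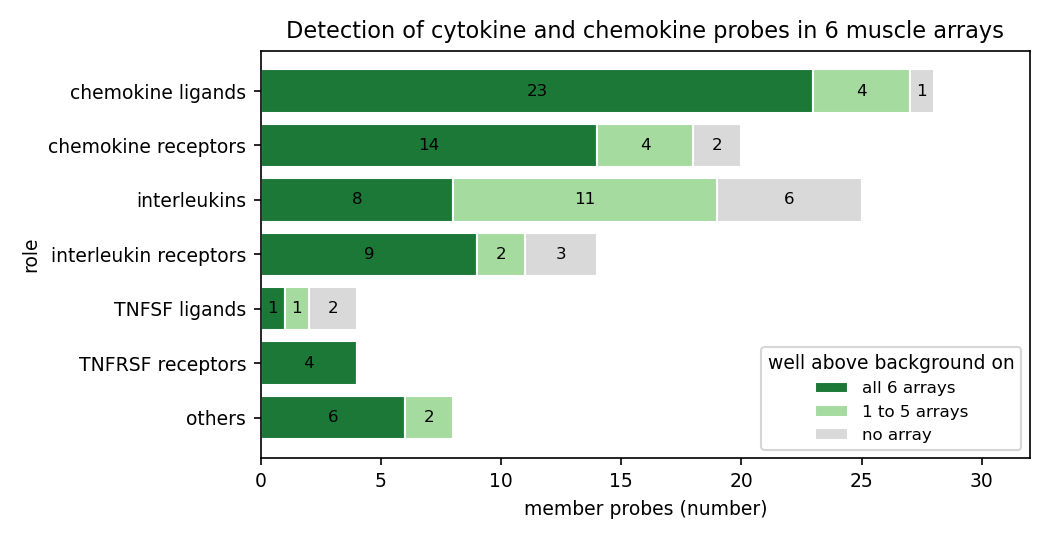
Number of member probes by role that were well above background on all 6 arrays, on 1 to 5 arrays or on no array, with the number written in each bar. Chemokine ligands had 23 of 28 probes detected on all arrays, and interleukins 8 of 25.

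Several interleukins were not well above background on any array. These were IL2, the growth factor of T cells, IL4 and IL13, which drive the type 2 response, IL17A and IL22, made by Th17 cells, and IL12A, a subunit of IL12. The chains IL2RA and IL18R1 of interleukin receptors, a probe resembling the type I IL1 receptor (TC332762), the chemokine CCL28 and the TNFSF4 and TNFSF8 ligands were also undetected. So were CCR6, a receptor of Th17 and B cells, and a probe described as the Duffy antigen, which binds chemokines without signalling (TC349958). The files call the TNFSF4 and TNFSF8 probes receptors, and RefSeq gives the same accessions to the ligands. Absence of signal well above background does not show absence of the transcript.

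A few interleukins and receptors were detected on scattered arrays. IL7, which sustains lymphocytes, was at -5.52, -5.75 and -5.70 in LDM and at -6.78, -2.15 and -5.34 in PMM, with a single high array in PMM. IL21, a product of helper T cells, was not well above background on any of the 3 LDM arrays, with -8.35, -7.77 and -6.43. In PMM it was at -3.25, -7.41 and -4.19, and 2 of the 3 arrays were well above background. The mean of all 3 PMM values of IL21 was 1.39-fold above the mean of the dimmest signals called detected on the LDM arrays. It includes the PMM array that was not well above background, so it is no firm lower bound. The IL21 probe did not pass the filter and was not tested. The receptor CMKLR1, bound by chemerin, was at -1.38, -5.40 and -3.38 in LDM and at -2.35, -5.60 and -3.33 in PMM. Both arrays of replicate 2 were not well above background for CMKLR1, and both of replicate 1 were the highest of their muscle.

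The probes of 5 genes differed in detection, and for 3 of these, IL6, IL15 and IL18, they correlated below 0 across the 6 arrays. For IL6, the best known myokine, probe 1 was detected on all arrays, with -4.23, -2.80 and -2.21 in LDM and -4.08, -2.55 and -3.25 in PMM. Probe 2 of IL6 was detected on 4 arrays and missed on both arrays of replicate 3. Across the 6 arrays the probes of IL6 correlated at -0.27, those of IL15 at -0.40, those of IL18 at -0.22 and those of CXCL8 at 0.71. The second probes of IL15, IL18 and CXCL8 were detected on 2, 1 and 2 arrays, and the first probes on all 6. The probes of IL13RA2, detected on 5 and 6 arrays, correlated at 0.39. Where both probes were detected on all arrays, those of CCL2 correlated at 1.0, of CCR1, CXCL2 and CXCL10 at 0.99, of CXCL12 at 0.53, and the 3 pairs of TNFRSF1B at 0.88, 0.59 and 0.29. No pair of these probes shared a stretch over 3 bases at overlapping ends.

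**Figure D2:**
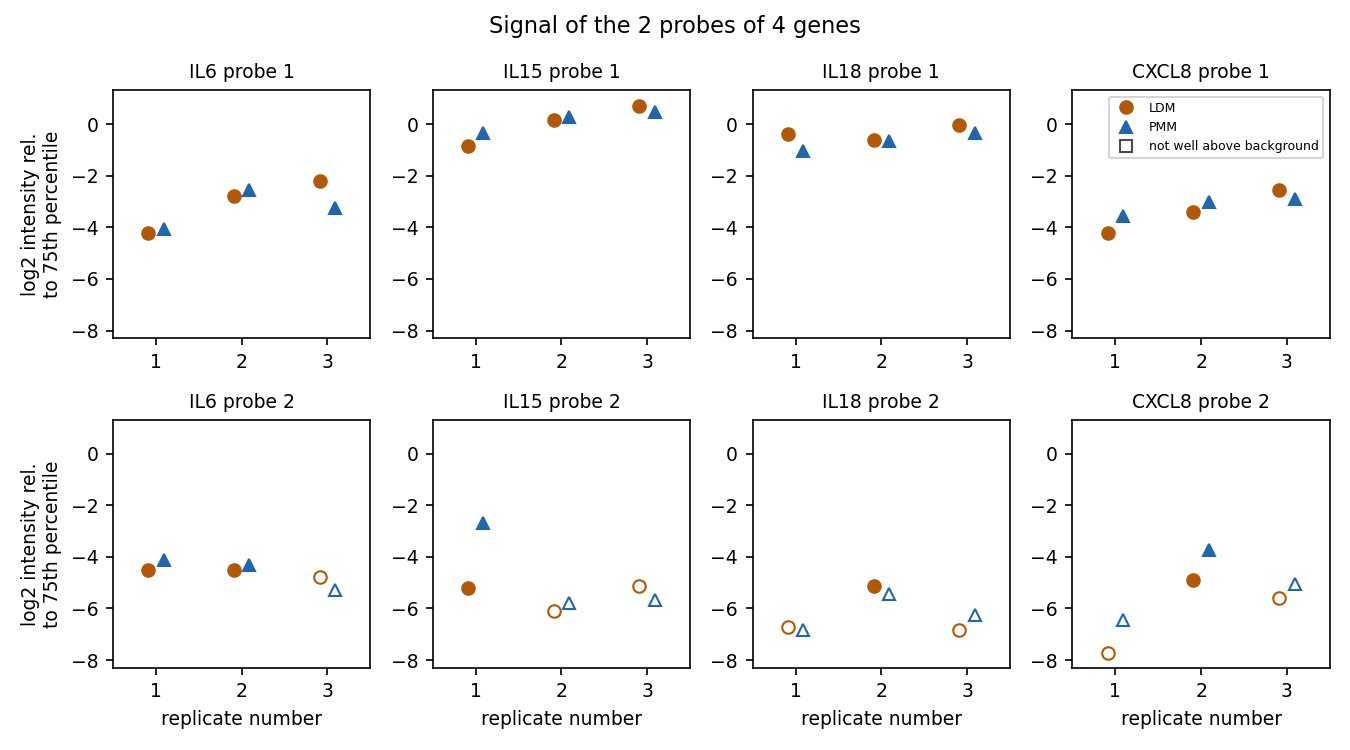
Log2 intensity relative to the 75th percentile of the array for both probes of IL6, IL15, IL18 and CXCL8, by replicate number, with LDM as circles and PMM as triangles. Open symbols were not well above background, which held for none of the arrays of probe 1 and for 2 to 5 of the 6 arrays of probe 2.

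No member was called between PMM and LDM. A member entered the test when it was detected on all 3 arrays of either muscle, which 73 of 103 probes were, for 65 genes. Limma called 0 of the 73 at an adjusted p under 0.05, and 0.0310% of all 25835 probes tested. With the replicate number as a block it again called 0 members, beside 0.0658% of all probes. Standard errors given below come from the fit without the block, which does not use the pairing by number. At an unadjusted p under 0.05, 1 member passed without the block, IL5, or 1.37%, beside 2.63% of all probes. With the block 11 of the 73 passed, or 15.1%, and the share among all probes was 11.1%. Of the members 40 were higher in PMM and 33 lower, and their median log2 difference was 0.07, beside -0.041 over all probes. In the single pairs the median was 0.25, 0.13 and -0.22 for replicates 1, 2 and 3. The 3 LDM and 3 PMM values did not overlap for 3 members, CCR2, CCRL2 and IL5, or 4.11%, and for 5.92% of all probes.

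**Figure D3:**
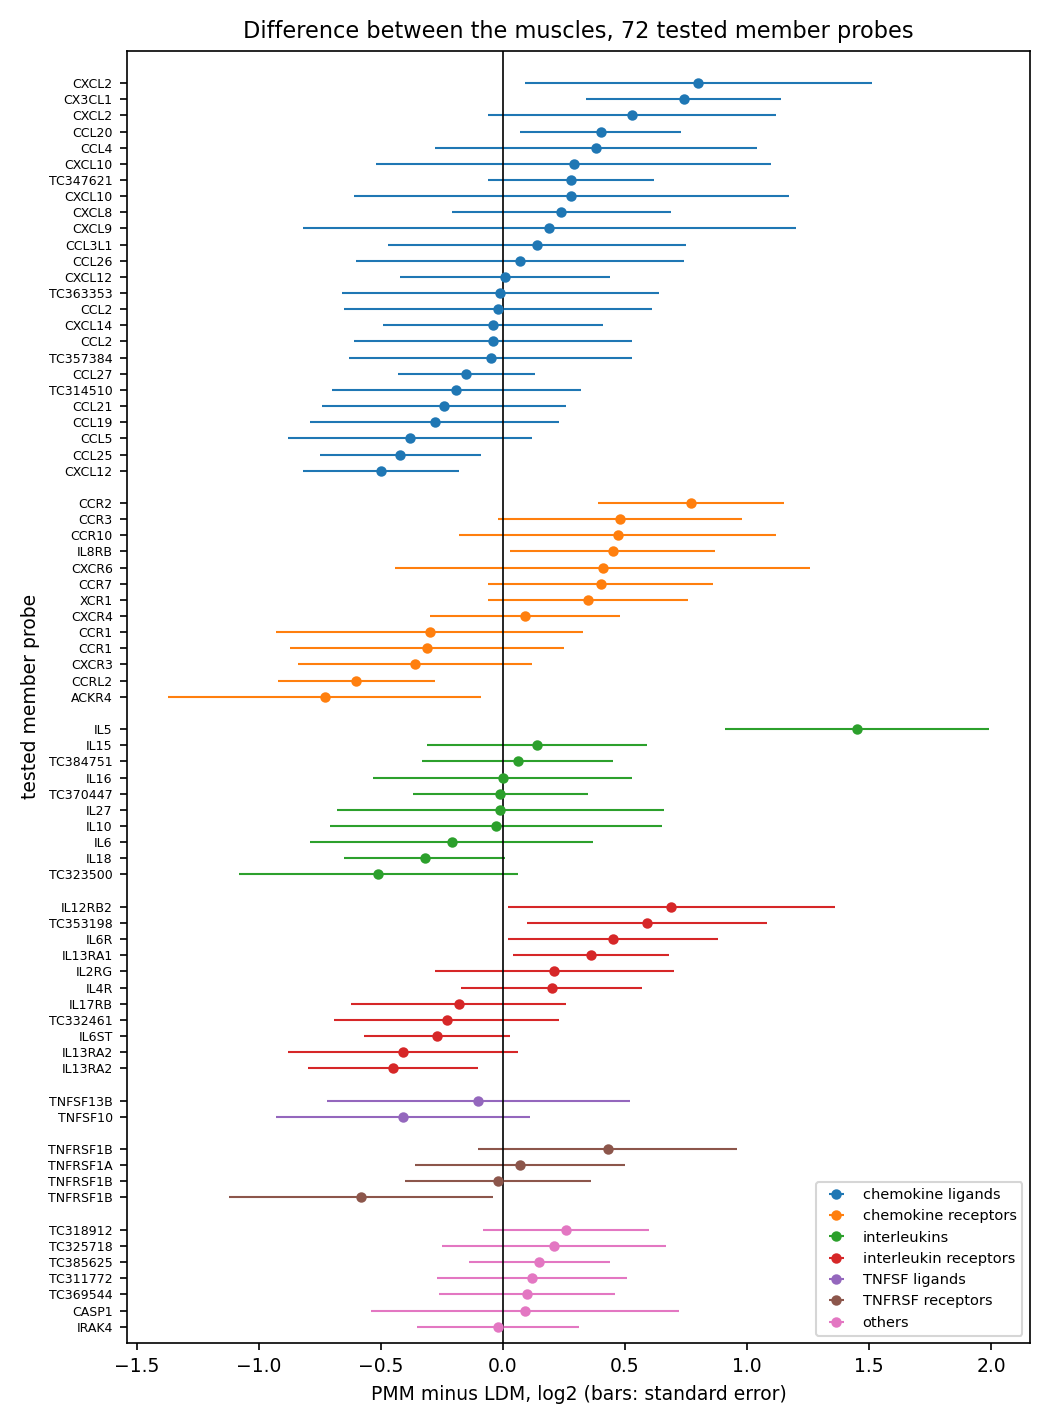
PMM minus LDM on the log2 scale for 72 of the 73 tested member probes, grouped by role, with bars of 1 standard error from limma (3 arrays per muscle). Values ran from -0.73 for ACKR4 to 1.45 for IL5, and none passed the adjusted threshold.

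IL5, which sustains eosinophils, had the largest difference between the muscles. It was at -4.26, -4.35 and -6.18 in LDM and at -3.07, -3.42 and -3.94 in PMM. Every PMM array was above every LDM array, and LDM replicate 3 was not well above background. The difference was 1.45 ± 0.54 (SE, limma, 3 arrays per muscle), in which LDM rests on 2 arrays above background, with an adjusted p of 1.0, and 0.21 with the replicate block. The exact two-sided permutation p was 0.1, the smallest that 3 against 3 arrays allow. IL5 was the 1 member called under any alternative, with an adjusted p of 0.044 when the slide was a random block and of 8.6e-05 with the replicate block and without replicate 1. Over all probes these limma settings called 300 and 802, beside 8 in the main fit. The second setting rests on 2 arrays per muscle, and LDM replicate 3 is 1 of them. The probe passed the filter through PMM, the muscle where it was high, and the difference was 0.68 with normexp.

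The other interleukins tested differed between the muscles by -0.51 to 0.14 on the log2 scale. IL15, a myokine that supports natural killer cells, was at -0.85, 0.15 and 0.69 in LDM and at -0.36, 0.29 and 0.48 in PMM by probe 1, a difference of 0.14 ± 0.45 (limma SE). IL18, an inflammasome product, was at -0.39, -0.62 and -0.05 in LDM and at -1.04, -0.67 and -0.33 in PMM by probe 1. Its difference was -0.32 ± 0.33 (limma SE), with overlapping groups. For IL6 probe 1 the difference was -0.21 ± 0.58, and for the anti-inflammatory IL10 it was -0.03 ± 0.68. The probe described as IL17C (TC323500) was at -2.60, -2.85 and -4.21 in LDM and at -3.93, -2.72 and -4.56 in PMM, with a difference of -0.51 ± 0.57 that normexp background correction turned to 0.21. IL16, a chemoattractant for CD4 cells, differed by 0.00 ± 0.53.

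In interleukin receptors the largest difference was that of IL12RB2, the signalling chain of the IL12 receptor. It was at -1.71, -1.24 and -2.45 in LDM and at -0.19, -0.38 and -2.75 in PMM. The PMM arrays of replicates 1 and 2 were the highest, and that of replicate 3 the lowest of all. The difference was 0.69 ± 0.67 (limma SE, adjusted p = 1.0). IL6R, which binds IL6, was at -3.11, -2.09 and -3.09 in LDM and at -2.09, -1.85 and -3.0 in PMM, a difference of 0.45 ± 0.43. IL6ST, the gp130 chain through which IL6 signals, was at 0.07, 0.67 and 0.46 in LDM and at -0.05, 0.25 and 0.19 in PMM. Its difference was -0.27 ± 0.30, whereas a probe resembling mouse IL6ST (TC353198) differed by 0.59 ± 0.49. The groups overlapped for these 4 probes.

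Chemokine ligands differed between the muscles by -0.50 to 0.80 on the log2 scale, and 13 of 25 were higher in PMM. CXCL2, which attracts neutrophils, was at 0.03, 2.26 and 1.68 in LDM and at 0.79, 2.99 and 2.59 in PMM by one probe. PMM was higher in each pair, but the groups overlapped widely, and the difference was 0.80 ± 0.71 (limma SE), with an adjusted p of 1.0, and 0.22 with the replicate block. The other CXCL2 probe differed by 0.53 ± 0.59. CX3CL1, a membrane-bound chemokine of endothelium, was at -4.26, -3.36 and -3.95 in LDM and at -3.11, -2.53 and -3.70 in PMM. It differed by 0.74 ± 0.40 (adjusted p = 1.0 by limma, and 0.35 with the block), with overlapping groups. CCL25, a ligand of CCR9, was at 0.43, 0.87 and 0.92 in LDM and at -0.03, 0.72 and 0.26 in PMM, a difference of -0.42 ± 0.33.

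The probes of CXCL12, which retains leukocytes and progenitors through CXCR4, did not give one direction. Probe 1 was at 4.27, 4.64 and 4.50 in LDM and at 3.69, 4.41 and 3.82 in PMM, a difference of -0.50 ± 0.32. Probe 2 was at 5.44, 6.53 and 6.61 in LDM and at 5.63, 6.62 and 6.36 in PMM, a difference of 0.01 ± 0.43 whose sign changed under median centring and normexp. CCL2, which attracts monocytes, differed by -0.04 ± 0.57 and -0.02 ± 0.63 by its probes, the first of which was at 0.05 with normexp. CXCL8, which attracts neutrophils, differed by 0.24 ± 0.45 by probe 1.

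Chemokine receptors held the other members without overlap. CCR2, the receptor of CCL2 on monocytes, was at -2.90, -1.87 and -1.92 in LDM and at -1.65, -1.09 and -1.63 in PMM. Every PMM array was higher, by 0.77 ± 0.38 on average (adjusted p = 1.0 by limma, and 0.34 with the block). CCRL2, an atypical receptor that binds chemerin, was at -2.94, -2.93 and -2.43 in LDM and at -3.65, -3.37 and -3.09 in PMM. Every PMM array was lower, by -0.60 ± 0.32 on average, but with normexp the difference was 0.09. ACKR4, a scavenger of CCL19, CCL21 and CCL25, was at -1.88, -0.08 and -0.39 in LDM and at -2.79, -0.78 and -0.98 in PMM. It was lower in PMM in each pair, and overlapped between the groups, with a difference of -0.73 ± 0.64 (adjusted p = 1.0 by limma, and 0.25 with the block). The exact two-sided permutation p was 0.1 for CCR2 and CCRL2 and 0.5 for ACKR4.

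In the tumour necrosis factor superfamily the probes of a single receptor disagreed. TNFRSF1B had differences of -0.02 ± 0.38, 0.43 ± 0.53 and -0.58 ± 0.54 by its 3 probes, and in the probe with the last value PMM replicate 1 was at -2.06 and the other 5 arrays between -0.49 and 0.12. TNFRSF1A, the widely expressed receptor of TNF, was at 2.65, 3.32 and 4.11 in LDM and at 3.16, 3.20 and 3.94 in PMM, a difference of 0.07 ± 0.43 that normexp turned to -0.06. TNFSF10, or TRAIL, was at -0.50, 0.56 and 0.98 in LDM and at -0.96, 0.08 and 0.69 in PMM, a difference of -0.41 ± 0.52. TNFSF13B, or BAFF, which sustains B cells, differed by -0.10 ± 0.62, and by 0.43 with normexp. Among members that are not themselves cytokines or receptors, 7 probes were tested. Those with the largest differences were a CKLF-like probe (TC318912) at 0.26 ± 0.34, an IRAK-like probe (TC325718) at 0.21 ± 0.46 and a transcription factor that represses IL2 (TC385625) at 0.15 ± 0.29.

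The range over replicate numbers was wider for the members than for all probes. Over the 73 tested, the median range of the mean of both muscles across the 3 numbers was 1.3 on the log2 scale, and the median absolute difference between the muscles was 0.27. Over all probes these medians were 0.79 and 0.20. With normexp the median range was 0.82 over members and 0.67 over all probes. A range over 3 means of 2 arrays and a difference of 2 means of 3 arrays are unlike measures. Their sizes were therefore not compared with each other. In a limma F-test between replicate numbers, with the muscle as a term, 35 of 73 members were called at an adjusted p under 0.05, or 47.9%, and 25.1% of all probes. Of the 35, replicate 1 had the lowest mean in 30 and replicate 3 the highest in 29. These counts rest on 2 arrays per number, and no such counts over all called probes are given. With normexp background correction, and with no filter on detection, the test called 0 members. Leaving out LDM replicate 2 or 3, or PMM replicate 2 or 3, also gave 0, leaving out LDM replicate 1 gave 43 of 73, and leaving out PMM replicate 1 gave 53 of 74. The shares of all probes called in these other settings are not given. Whether the members differ from all probes there was not tested.

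The order of the arrays was shared by both muscles. Replicate 1 was the lowest array of LDM and of PMM for 53 of the 73 members, or 72.6%, and for 25.5% of all probes. With normexp these were 22 members, or 30.1%, and 10.0% of all probes. Replicate 3 was the highest array of both muscles for 37 members, or 50.7%, and for 19.4% of all probes, which normexp brought to 24 members, or 32.9%, and 12.9%. The median difference between replicate 3 and replicate 1 was 1.05 over members and -0.04 over all probes. It was 1.05 and -0.01 after quantile normalization, 0.95 and -0.14 with median centring, and 0.39 and -0.37 with normexp. By role, replicate 1 was lowest in both muscles for 20 of 25 chemokine ligands, 13 of 14 chemokine receptors, 7 of 10 interleukins and 5 of 11 interleukin receptors. Both arrays of replicate 3 lay above those of replicate 1 of the same muscle for 58 members and below them for 8, and with normexp for 36 and 7. Over all 25725 probes with values these counts were 8550 and 10567, and with normexp 5030 and 10502. The share of all probes well above background was 72.4% and 58.4% on the LDM arrays of replicates 1 and 3, and 60.0% and 62.4% on the PMM arrays.

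**Figure D4:**
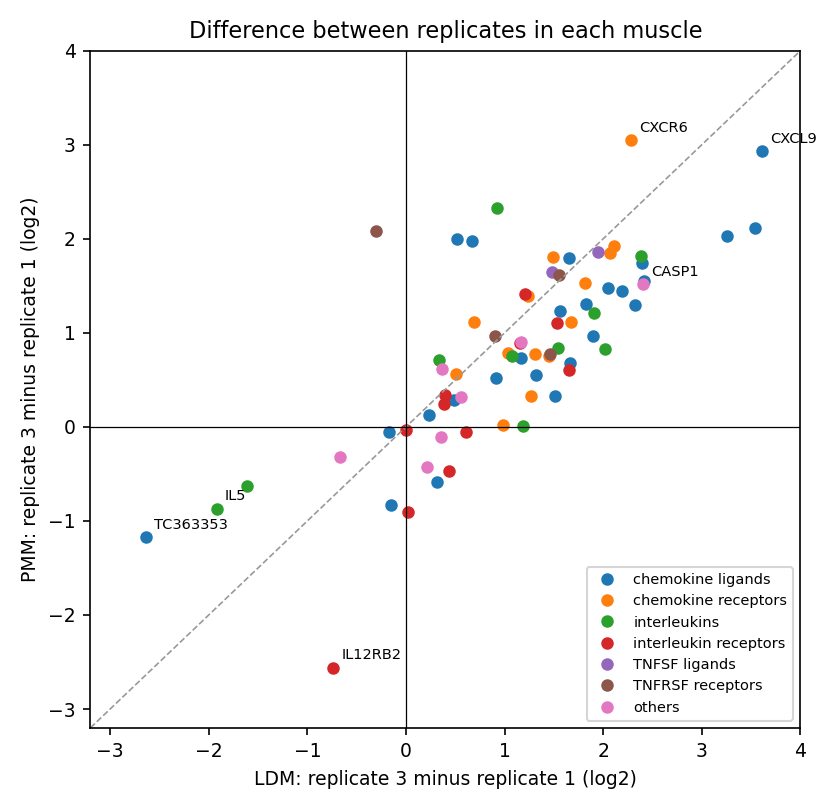
Replicate 3 minus replicate 1 in LDM (horizontal) and in PMM (vertical), both on the log2 scale, for the 73 tested member probes coloured by role, with a dashed line where both are equal. Of the points, 58 lie above 0 on both axes and 8 below 0 on both, TC363353 and IL5 among the latter. Of all 25725 probes with values, which are not shown, 8550 were above 0 in both muscles and 10567 below.

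The widest range was that of CXCL9, an interferon-gamma-induced chemokine that recruits T cells through CXCR3. It was at -5.45, -4.44 and -1.84 in LDM and at -4.79, -4.50 and -1.86 in PMM. Replicate 3 stood apart in both muscles (limma F-test, adjusted p = 0.028), by 3.26 from replicate 1 on the log2 scale and by 0.54 with normexp. PMM replicate 1 was not well above background for CXCL9, so no fold is given. CXCL10, a chemokine of the same receptor, was at 1.12, 2.35 and 4.38 in LDM and at 1.97, 2.74 and 4.0 in PMM by probe 2. Replicate 3 was 6.25-fold above replicate 1 by probe 2, a log2 difference of 2.64 that was 3.01 with normexp. By probe 1 it was 7.12-fold above, a log2 difference of 2.83 that was 1.13 with normexp. CXCR3 itself was at -0.67, -1.32 and 0.36 in LDM and at -1.12, -1.25 and -0.33 in PMM, with replicate 3 the highest and replicate 2 the lowest in both muscles (adjusted p = 0.039).

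CXCR6, a receptor of resident T and natural killer cells, was at -3.88, -3.65 and -1.60 in LDM and at -3.87, -3.23 and -0.82 in PMM. Replicate 3 was 6.34-fold above replicate 1 (adjusted p = 0.028 by the limma F-test), a log2 difference of 2.66 that was 0.78 with normexp. This probe was printed on 4 or 5 usable spots per array, whose coefficient of variation was 1.8% to 15.7%. A probe described as CXCL16, the ligand of CXCR6, went the other way (TC363353). It was at -1.02, -1.75 and -3.66 in LDM and at -1.67, -1.93 and -2.84 in PMM, lowest in replicate 3 in both muscles. It was called (adjusted p = 0.039 by the limma F-test), and its description rests on a short match to the mouse protein. A further probe, described as CXCR6 by a short match to the human protein (TC384462), was not tested. That probe was well above background only on LDM replicate 1 and PMM replicate 3.

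**Figure D5:**
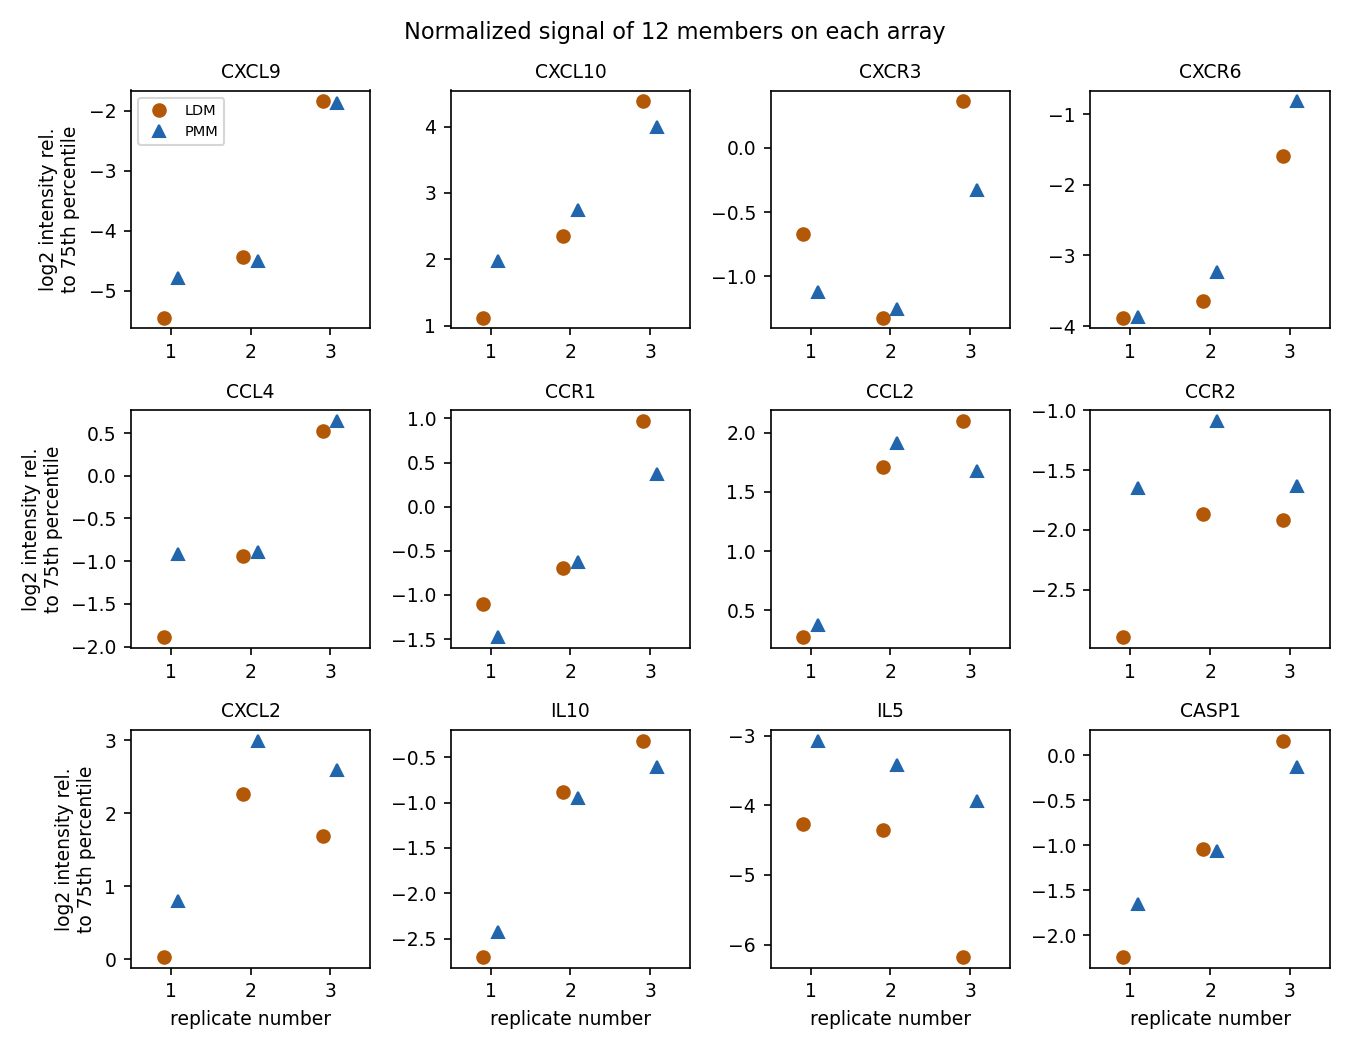
Log2 intensity relative to the 75th percentile of the array for 12 members by replicate number, with LDM as circles and PMM as triangles, 1 array per point and a scale of its own in each panel. CXCL9, CXCL10, CXCR6, CCL4 and CASP1 were highest in replicate 3 in both muscles, and CCR2 and IL5 were higher in PMM on every array.

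CCL2, CCL4 and CCR1 were lowest in replicate 1 in both muscles. CCL2 was at 0.27, 1.71 and 2.10 in LDM and at 0.37, 1.91 and 1.68 in PMM by one probe, and replicate 3 was 2.97-fold above replicate 1. CCL4, an inflammatory chemokine of macrophages and T cells, was at -1.89, -0.94 and 0.52 in LDM and at -0.91, -0.89 and 0.64 in PMM. Replicate 3 was the highest in both muscles. It was 3.95-fold above replicate 1 for CCL4, 3.49-fold for the related CCL3L1 and 4.18-fold for CCL26 (adjusted p = 0.028 to 0.031 by the limma F-test). CCR1, shared by several CC chemokines, was 3.19-fold and 3.89-fold above by its probes. With normexp the log2 difference between these replicates was 1.52 in place of 1.57 for that CCL2 probe. It was 1.54 in place of 1.98 for CCL4, 1.42 in place of 1.81 for CCL3L1 and 1.95 in place of 2.06 for CCL26. For the CCR1 probes it was 1.19 in place of 1.67 and 1.31 in place of 1.96. CCL5, the T cell product RANTES, had a range of 1.33 and was not called, with an adjusted p of 0.075.

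CCL19 and CCL21 did not share an order. CCL19, a ligand of the lymph node homing receptor CCR7, was at -0.24, 0.88 and 1.66 in LDM and at -0.14, 0.77 and 0.83 in PMM. By this probe replicate 3 was 2.70-fold above replicate 1 (adjusted p = 0.040 by the limma F-test). Another probe described as CCL19 (TC314510) was at -1.53, -0.89 and -1.01 in LDM and at -2.2, -1.58 and -0.2 in PMM. It was not called (adjusted p = 0.13 by the limma F-test), and its highest LDM array was replicate 2. CCL21, the other ligand of CCR7, was at -2.29, -2.67 and -0.78 in LDM and at -2.13, -2.53 and -1.80 in PMM, lowest in replicate 2 in both muscles and not called (adjusted p = 0.074). CCR7 was at -3.90, -3.24 and -2.66 in LDM and at -3.65, -2.67 and -2.26 in PMM (adjusted p = 0.030). CXCR4, the receptor of CXCL12, had a range of 0.81 and was not called (adjusted p = 0.13), whereas CXCL12 was called by probe 2, with a range of 1.04, and not by probe 1, with a range of 0.55. CCR3, a receptor of eosinophils that CCL26 binds, was at -4.61, -3.33 and -2.94 in LDM and at -3.85, -2.84 and -2.73 in PMM (adjusted p = 0.029). ACKR4 was 3.74-fold higher in replicate 2 than in replicate 1, and both tested TNFSF ligands were lowest in replicate 1. For TNFSF10 replicate 3 was 2.96-fold above replicate 1. TNFSF13B was not well above background on PMM replicate 1, and its difference of replicate 3 from replicate 1 was 1.91 on the log2 scale and -0.15 with normexp. With normexp this difference turned also for CCR3, from 1.40 to -0.20, for CCR7, from 1.32 to -0.14, and for a TNFRSF1B probe, from 0.93 to -0.29. It was 0.61 in place of 1.65 for ACKR4. Other members turned too, so this list is not complete. Among them were IL6 probe 1, from 1.43 to -0.14, CXCL8 probe 1, from 1.17 to -0.16, and CCL5, from 1.33 to -0.42. IL27 went from 1.62 to -0.67 and IL2RG from 1.02 to -0.72.

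Among the remaining members, CXCL2 had its highest value in replicate 2 in both muscles and was 4.65-fold above replicate 1 there. IL10 was at -2.70, -0.88 and -0.32 in LDM and at -2.43, -0.95 and -0.61 in PMM, and replicate 3 was 4.28-fold above replicate 1 (limma F-test, adjusted p = 0.028), a log2 difference of 2.10 that was 1.01 with normexp. CASP1, the caspase that cleaves pro-IL1 and pro-IL18, was at -2.24, -1.04 and 0.16 in LDM and at -1.65, -1.06 and -0.13 in PMM, and replicate 3 was 3.89-fold above replicate 1. IL15 and IL16 were also called, with ranges of 1.19 and 1.57. CCL27, a skin chemokine, stayed between -4.10 and -3.75 on all 6 arrays, and IL13RA1 between -3.81 and -2.84. For IL5 the order was the reverse of most members, with a range of 1.40 and an adjusted p of 0.060. CCL20 and IL12RB2, too, were lower in replicate 3 than in replicate 1 in both muscles.

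Markers of cell types differed between replicate numbers as well, and not all in the same direction. The 5 tested T cell markers were each called in the F-test, and their summed level, on the linear scale relative to the 75th percentile, was 1.05 and 1.32 in replicate 1, 2.63 and 2.65 in replicate 2, and 4.18 and 4.86 in replicate 3, for LDM and PMM. The 4 macrophage markers with a probe were also each called, with summed levels of 9.44 and 11.4, 24.1 and 24.4, and 37.6 and 32.3. CD163, a scavenger receptor of macrophages, was at 1.66, 2.92 and 3.75 in LDM and at 2.0, 3.04 and 3.59 in PMM. Endothelial markers were called in 3 of 5 cases, with summed levels of 53.0 to 162 in LDM and 90.4 to 156 in PMM. Fibroblast markers were called in 3 of 4, with 97.6, 163 and 220 in LDM and 71.0, 131 and 152 in PMM for replicates 1 to 3. The fibroblast marker COL3A1 was not called and was lower in replicate 3 than in replicate 1 in both muscles. Adipocyte markers were called in 3 of 5, with 72.4, 229 and 222 in LDM and 61.6, 244 and 227 in PMM. Skeletal muscle markers were called in 2 of 8, and their sums were highest in replicate 1. These were 5980, 3490 and 4950 in LDM and 7300, 4320 and 4890 in PMM. The counts called stand beside 25.1% of all probes. CD79A, a part of the B cell receptor, was not well above background on any array, and no probe was matched to the neutrophil or erythrocyte markers. No marker of any list was called between PMM and LDM. The part of these cells in the differences between replicates was not tested. Calls of markers, and of the list genes below, are from the main setting. Their calls with normexp, with no filter or with arrays left out are not given.

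The counts called between replicate numbers in the lists below stand beside the 25.1% of all probes called by the same test. Of the JAK and STAT genes 9 of 11 were tested, 0 were called between the muscles and 3 between replicate numbers. STAT4, which carries IL12 signals, was at -2.66, -1.71 and -2.56 in LDM and at -0.87, -0.87 and -2.19 in PMM, a difference of 1.0 (adjusted p = 1.0 by limma). Of the NF-kappaB genes and adaptors 10 of 19 were tested, with 0 called between the muscles and 4 between numbers. MYD88, the adaptor of the IL1 and IL18 receptors, was at 2.56, 3.41 and 4.44 in LDM and at 2.91, 3.38 and 4.01 in PMM, while the kinase subunit CHUK was at 0.61, -0.15 and -0.79 in LDM and at 0.33, -0.15 and -1.05 in PMM. The median difference of replicate 3 from replicate 1 was -0.27 for JAK and STAT genes and 0.08 for the NF-kappaB list. Of 8 SOCS genes, which feed back on cytokine receptors, 2 were tested, and SOCS2 was called between numbers. Among cytokines outside the naming rule, 9 of 21 were tested and 2 called between numbers, TGFB1 and LTA, and TNF itself was at -1.02, -0.55 and -0.13 in LDM and at -0.83, -0.80 and -0.17 in PMM.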

How the data were processed

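The 6 Agilent arrays carried Cy3-labelled total RNA of LDM or PMM, with a single colour per array. The label text on extraction names adipose tissue, while the sample labels and the methods name muscle. The authors deposited linear spot intensities from the scanner software, with local background subtracted and no normalization between arrays, and their value table holds the same intensities to within 0.005 units. The precision is limited by the number of arrays, 3 per muscle. No spot was saturated. Nothing in the labels assigns a replicate number to an animal, so p-values measure the spread between these arrays.

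Control spots were removed, as were the spots marked as outliers (6 to 161 on an array), repeated spots averaged, and log2 intensity taken relative to the 75th percentile of each array. Detection used the flag for spots well above background. A probe was tested when detected on all 3 arrays of either muscle. PMM was compared with LDM by limma 3.58.1 in R 4.3.3, two-sided, over 25835 probes with p-values adjusted by Benjamini-Hochberg (threshold 0.05), and replicate numbers by its F-test with the muscle as a term. Single members were also compared by exact permutation. The scripts were tested on simulated data. Names came from RefSeq (Sscrofa11.1 table, names only) by accession for 63 members and by gene number for 4, and from the files for 36.

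Same-numbered arrays deviated together (correlations of 0.616, 0.697 and 0.560 over 25725 probes), above 0.1 in each pair. The main fit and the permutation did not use this pairing, and the number was a block in an alternative fit. With the block the standard error was 0.16 in place of 0.71 for the brighter CXCL2 probe, and 0.17 in place of 0.64 for ACKR4. Slides were shared by both muscles for replicates 2 and 3. The members, roles, lists and tests were chosen with earlier results of these data known. Members were named by the rule of up to 3 genes per role with the largest absolute difference, any member called, IL6, IL15, IL18, CXCL8, CCL2, CXCL12, IL6R and IL6ST, and the 5 with the largest range over numbers, counting the brightest probe of a gene. Other members and list genes were named after their values were seen, as examples or because they were undetected, as were the counts of lowest and highest arrays. Alternatives were other normalizations (normexp with an offset of 50), filters, blocks and arrays left out. One member and one marker are not reported here by name.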

Additional observations from a re-analysis of the deposited data

How the results depend on the processing

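Members called between PMM and LDM stayed at 0 in the other settings tried, except 1, IL5, with the slide as a random block and with the replicate block without number 1. Over all probes the 8 calls became 17 with the replicate block, 300 when slides were a random block, 1 with normexp, and 0 with the percentile over probes detected on all arrays, with no filter, with detection on all 6 arrays and with outlier spots kept. They became 802, 1 and 0 with the replicate block without number 1, 2 or 3, and 0 to 1 without single arrays. The 3 members with no overlap became 5 with median centring and with no filter, 0 with normexp, 15, 11 and 19 with the replicate block without number 1, 2 or 3 (2 arrays per muscle), and 6 to 14 without single arrays. Values of fewer arrays separate more readily, and the share over all probes in these settings is not given. These counts are therefore not read as changes in the members. The median difference of members ran from -0.28 without LDM replicate 1 to 0.33 without LDM replicate 3. Normexp moved the median of all probes from -0.041 to 0.105. Members called between replicate numbers fell from 35 to 0 with normexp and with no filter, and ran from 0 to 53 without single arrays or numbers, an alternative chosen after seeing the data. Without number 1, 2 or 3 they were 27, 17 and 0. The shares of all probes called between replicate numbers in these settings are not given. The cause of these changes was not tested.

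Of 29 named members, 13 kept their direction in each setting. Among these 13 the difference ran from 0.15 without LDM replicate 1 to 1.46 without PMM replicate 1 for CXCL2, from -1.28 without LDM replicate 1 to -0.07 with normexp for ACKR4, from 0.23 without PMM replicate 1 to 1.51 without PMM replicate 3 for IL12RB2, from 0.68 with normexp to 1.79 without LDM replicate 1 for IL5, from 0.44 to 1.02 for CCR2 and from 0.45 to 1.03 for CX3CL1. The other 16 turned in at least 1 setting. With normexp these were CCRL2 0.092, TC323500 0.211, TNFSF13B 0.429, TNFRSF1A -0.059, IL6 0.265, CCL2 0.047, CXCL12 -0.145 and IL10 0.304. CXCL12 turned also with median centring (-0.047), IL10 with the percentile over detected probes (0.002), and with the slide as a random block TNFRSF1A (-0.099) and CXCL12 (-0.060). With the replicate block without number 1 they were TNFRSF1B 0.071, TNFRSF1A -0.146, IL15 -0.031, CXCL12 -0.079 and CXCL9 -0.045, without number 2 CXCL12 -0.030, and without number 3 TNFSF13B 0.012, IL6 0.202, CCL2 0.153 and IL10 0.096. Without single arrays the differences ran from -0.837 to 0.035 for TNFSF10, -0.623 to 0.482 for TNFSF13B, -0.967 to 0.071 for TNFRSF1B, -0.284 to 0.448 for TNFRSF1A, -0.160 to 0.586 for TC325718, -0.786 to 0.223 for IL6, -0.280 to 0.493 for IL15, -0.177 to 0.655 for CXCL8, -0.587 to 0.433 for CCL2, -0.366 to 0.297 for CXCL12, -0.738 to 1.222 for CXCL9, -0.506 to 1.125 for CXCR6, -0.457 to 1.172 for CXCL10 and -0.730 to 0.519 for IL10.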
